A study of Mus musculus with 8 samples.

Results

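The airway ion transport genes are those for the chloride and bicarbonate channel Cftr, the anion exchanger pendrin (Slc26a4), the anion channels Slc26a9 and Ano1, the 3 subunits of the epithelial sodium channel ENaC (Scnn1a, Scnn1b and Scnn1g), the chloride and bicarbonate importers Slc12a2 and Slc4a4, and the potassium channel Kcnn4. They were taken as the probe sets of the array that carry exactly 1 gene symbol, with the symbol among these 10 names, and 10 of the 18820 genes with such a probe set are members. Each had 1 such probe set, so the rule for choosing among several by the highest mean was not needed. No member's row was thus chosen by its level. The family itself, however, was chosen with earlier results known in which Cftr and Slc26a4 differed between CCSP-p52 and WT lungs. Differences by genotype are therefore given as a description of these arrays, while the differences after LPS were not part of the choice as stated. The LPS differences within a genotype share their dox pools with the genotype difference on dox alone. For Cftr and Slc26a4 they are thus not independent of the choice and are also given as a description.

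The surface of the airways is covered by a thin liquid whose volume and pH depend on salt movement across the epithelium. Cl- and HCO3- leave through apical channels and exchangers, Na+ is taken back through ENaC, and water follows. The anions are replenished from the blood side by Slc12a2 and Slc4a4, and K+ channels such as Kcnn4 keep the voltage that drives anions out. Loss of CFTR function causes cystic fibrosis, and inflammation is known to change the levels of several of these transporters.

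Whole lung RNA of FVB mice aged 8 to 12 weeks, with the sexes evenly mixed, was measured on 8 Affymetrix Mouse Gene 1.0 ST arrays. Each array read the pooled RNA of 3 mice, and there were 2 pools, or 6 mice, in each of 4 groups. CCSP-p52 mice carry CCSP-rtTA and CCSP-tTS/(tet-O)7-FLAG-p52 transgenes, so that doxycycline (dox) induces FLAG-tagged p52 in airway epithelium under the club cell promoter CCSP, and they came from 2 founder lines. WT mice were littermates negative for the genotype. Mice of every group, WT included, drank 2 g/L dox with 2% sucrose for 1 week, and mice of the LPS groups also received LPS into the trachea 48 hours before the end. The groups are called WT dox, CCSP-p52 dox, WT LPS and CCSP-p52 LPS. p52 is the processed product of Nfkb2 and a subunit of the transcription factor NF-κB, and LPS is a bacterial cell wall product that brings neutrophils into the lung. A pool is the unit of replication, and the number of arrays limits the precision of every value.

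Values are log2 expression levels, in which a difference of 1 is a doubling, and they are compared only for 1 gene at a time. The difference between groups is called logFC and is given with its standard error from limma. A gene was counted at the cut-off when the logFC was at least 0.41 in size and the unadjusted p at most 0.05. Adjusted p-values are over all probe sets with 1 symbol. In whole lung RNA, fewer cells of a type and less RNA per cell cannot be told apart.

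Nfkb2, the gene for the induced protein, was 9.51 and 9.58 in WT dox, 10.20 and 10.33 in CCSP-p52 dox, 10.83 and 10.56 in WT LPS, and 11.28 and 10.53 in CCSP-p52 LPS. The sources used here do not say which part of the transcript its probes read. CCSP-p52 LPS pool 2 stood apart from the other LPS pools. Over 1530 probe sets with an adjusted p under 0.05 and a logFC of at least 1 in size between WT LPS and WT dox, its median change from the dox pools of its genotype was 57.7% of the mean WT change, against 108% and 92% in the WT LPS pools and 107% in CCSP-p52 LPS pool 1. WT LPS pool 2 had basal and squamous epithelium markers at a mean of 9.76 and skeletal muscle markers at 9.43, where the other 7 arrays had at most 6.54 and 7.62. None of the 10 genes is in those marker lists, which does not show whether the same tissue adds to their levels in that pool. Its part was not tested.

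The upstream sequences of 4 of the genes are shown because p52 acts on DNA through κB sites: Cftr and Slc26a4, which differed most between genotypes on dox alone, and Ano1 and Kcnn4, which moved in opposite directions after LPS and are the members with a full κB consensus match. They are the 250 bases before the annotated start in RefSeq's mouse promoter table (build GRCm38.p6, which the array files do not name), read 5′ to 3′ on the strand of the gene. The table held a window for 8 of the 10 genes. Capitals in Cftr mark each GC box (GGGCGG).
Cftr, chr6:18170437-18170686, plus strand: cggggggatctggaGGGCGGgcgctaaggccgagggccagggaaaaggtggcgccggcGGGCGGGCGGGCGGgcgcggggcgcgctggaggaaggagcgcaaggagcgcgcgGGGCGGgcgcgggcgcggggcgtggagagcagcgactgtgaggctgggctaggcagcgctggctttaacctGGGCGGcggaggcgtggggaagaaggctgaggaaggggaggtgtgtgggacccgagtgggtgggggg
In Slc26a4 the capitals mark a match to GGGNNNNNCC, the outer letters shared by many κB sites, and a TATA box (TATAAA).
Slc26a4, chr12:31559985-31560234, minus strand: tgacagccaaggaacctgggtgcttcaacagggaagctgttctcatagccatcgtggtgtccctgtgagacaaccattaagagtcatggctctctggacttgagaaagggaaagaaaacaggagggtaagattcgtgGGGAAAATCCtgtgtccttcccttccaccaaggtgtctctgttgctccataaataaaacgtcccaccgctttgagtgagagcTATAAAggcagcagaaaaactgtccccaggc
In Ano1 and Kcnn4 the capitals mark a match to the κB consensus.
Ano1, chr7:144738574-144738823, minus strand: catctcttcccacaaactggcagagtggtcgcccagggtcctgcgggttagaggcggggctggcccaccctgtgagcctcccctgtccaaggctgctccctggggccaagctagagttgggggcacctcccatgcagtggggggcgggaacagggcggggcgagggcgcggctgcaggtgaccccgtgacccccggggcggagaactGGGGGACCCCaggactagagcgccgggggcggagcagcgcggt
Kcnn4, chr7:24370013-24370262, plus strand: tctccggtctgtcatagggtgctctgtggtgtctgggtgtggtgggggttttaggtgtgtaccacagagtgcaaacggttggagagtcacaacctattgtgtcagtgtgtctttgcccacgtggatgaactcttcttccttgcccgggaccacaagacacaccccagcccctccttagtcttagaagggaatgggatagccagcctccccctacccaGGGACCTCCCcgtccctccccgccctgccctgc
The Cftr window is 76.4% G and C, where the median over all 32851 windows of the table was 52.4%. It holds 6 GC boxes, 3 of them overlapping at 184, 188 and 192 bases before the start, and no TATAAA. The Slc26a4 window is 49.6% G and C and is of another kind, with TATAAA 31 bases before the start and no GC box. Its GGGAAAATCC, 113 bases before the start, fits GGGNNNNNCC but not the full consensus. With both strands searched, GGGNNNNNCC was present in 45.8% of all windows and in 5 of the 8 members' windows, so a match to it is common. The full κB consensus, whose matches are also matches to GGGNNNNNCC, was present in 7.25% of all windows and in 2 of the 8 members, Ano1 at 43 and Kcnn4 at 33 bases before the start. GGGCGG was present in 32.7% of all windows and in 6 of the 8, and TATAAA in 12.4% and in 2 of the 8. These are matches of letters and not measured binding sites.

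Cftr was higher in CCSP-p52 than in WT lungs both without and with LPS, and it fell after LPS in CCSP-p52 lungs. CFTR is the cAMP-regulated apical channel through which airway epithelium secretes Cl- and HCO3-. Its level was 8.64 and 8.43 in WT dox, 9.52 and 9.38 in CCSP-p52 dox, 8.21 and 8.29 in WT LPS, and 8.47 and 9.20 in CCSP-p52 LPS. In each LPS state the CCSP-p52 pools were both higher than the WT pools, and the order of the group means was CCSP-p52 dox, CCSP-p52 LPS, WT dox and WT LPS. The neighbours CCSP-p52 LPS and WT dox in that order overlapped, since CCSP-p52 LPS pool 1 was below WT dox pool 1.

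On dox alone the logFC of Cftr between genotypes was 0.91 (standard error 0.22, 1.88-fold, n = 2 pools per group). With LPS it was 0.59 (standard error 0.22, 1.5-fold), and over all 8 arrays, in the additive model, it was 0.75 (standard error 0.16, 1.68-fold). The difference between the 2 LPS states was -0.33 (standard error 0.32, 95% interval -1.08 to 0.43), so the data do not separate them. Without LPS the logFC stayed between 0.81 and 1.02 when single arrays were dropped. With LPS it was 0.23, and not at the cut-off, without CCSP-p52 LPS pool 2, and 0.95 when pool 1 of that group was dropped instead. It was also not at the cut-off without WT LPS pool 1 (0.55), WT LPS pool 2 (0.63) or either CCSP-p52 dox pool (0.59).

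After LPS, Cftr had a logFC of -0.61 (standard error 0.22, 1.53-fold lower, adjusted p = 0.127) in CCSP-p52 lungs and of -0.29 (standard error 0.22, adjusted p = 0.383) in WT lungs. Over all 8 arrays the logFC was -0.45 (standard error 0.16, 1.37-fold lower, adjusted p = 0.0585 with limma), and the 4 LPS arrays overlapped the other 4. This fall was at the cut-off, but it was not without CCSP-p52 dox pool 1 (-0.39) or CCSP-p52 LPS pool 1 (-0.27), nor when the arrays were centred again on their medians (-0.39) or normalized by quantiles (-0.39). The fall in CCSP-p52 lungs was not at the cut-off without either CCSP-p52 dox pool (-0.54 and -0.69) or without CCSP-p52 LPS pool 1 (-0.25).

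Cell markers were read beside Cftr because airway CFTR is known to be highest in ionocytes and is also made by secretory and alveolar type II cells. The mean level of the ionocyte markers, of which 9 of 12 were measured, was 7.23 and 7.10 in WT dox and 7.26 and 7.16 in CCSP-p52 dox. In CCSP-p52 dox 1 of these 9 was higher at the cut-off, and the median logFC was 0.09. Foxi1 and Ascl3, the factors that define the cell, lay between 6.20 and 6.72 on all arrays. That is below the array medians of 7.48 to 7.54, and values this low may miss a change in ionocytes. The pan-epithelial markers (10 of 10 measured) had mean levels of 9.93 and 9.92 in CCSP-p52 dox and of 9.75 and 9.76 in WT dox, and the club cell markers (12 of 12) of 11.24 and 11.14 and of 11.59 and 11.71. Between these groups 0 of the 10 and 0 of the 12 were at the cut-off, with median logFCs of 0.26 and -0.21. The alveolar type II markers (12 of 12) had mean levels of 12.36 and 12.16 in CCSP-p52 dox and of 12.43 and 12.10 in WT dox. Of these 0 were at the cut-off, and the median logFC was -0.06. The part of these differences in the level of Cftr was not tested.

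**Figure D1:**
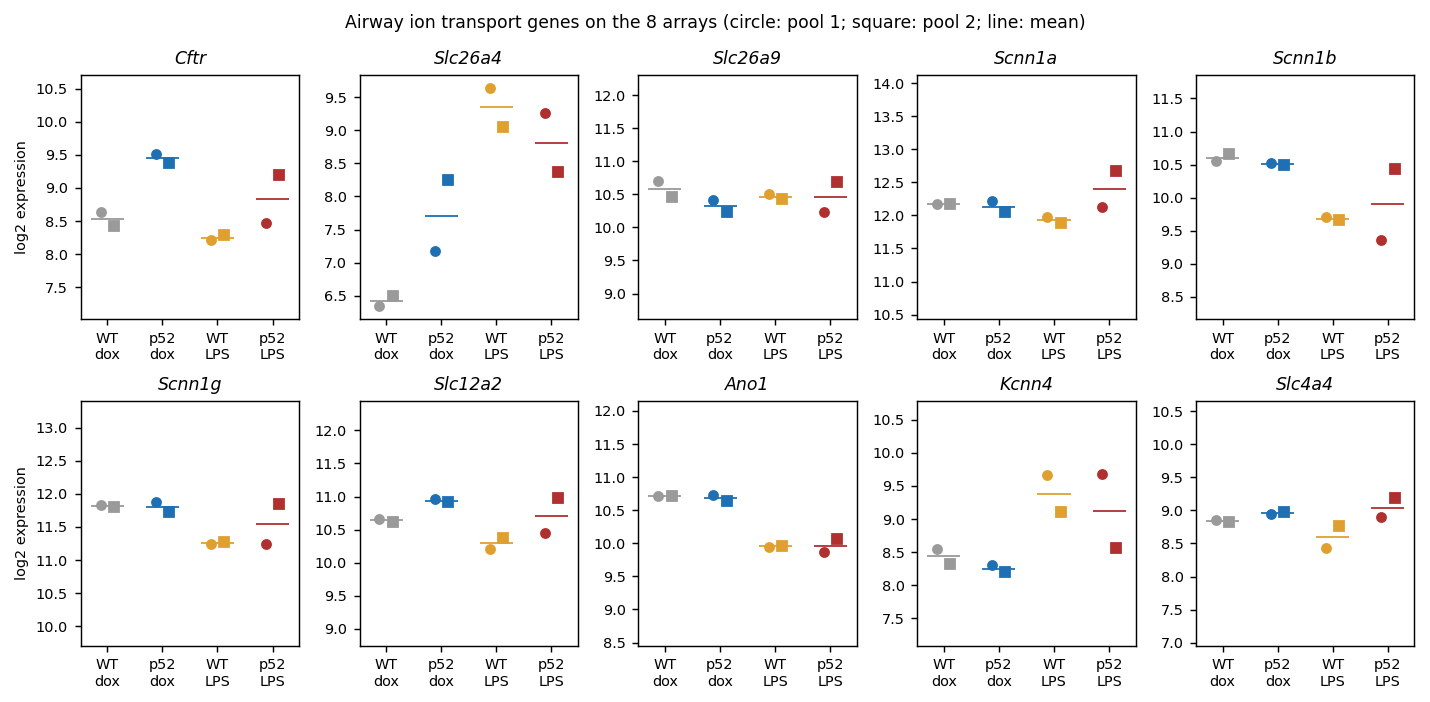
Log2 expression (vertical axes, each spanning the same number of log2 units) of the 10 airway ion transport genes on the 8 arrays, by group (horizontal axes). Circles are pool 1, squares are pool 2 and lines are group means of 2 pools; Cftr is higher in both CCSP-p52 dox pools than in both WT dox pools, Slc26a4 climbs from 6.34 to 9.65 between the lowest and highest array, and the CCSP-p52 LPS pools lie furthest apart for most genes.

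Slc26a4 showed the widest range of the 10 genes and rose after LPS in both genotypes. Pendrin is an apical exchanger that brings HCO3- and thiocyanate into airway liquid in return for Cl-, and it is known to be induced in inflamed airways. Its level was 6.34 and 6.49 in WT dox, 7.18 and 8.24 in CCSP-p52 dox, 9.65 and 9.05 in WT LPS, and 9.26 and 8.38 in CCSP-p52 LPS. The order of the group means was WT LPS, CCSP-p52 LPS, CCSP-p52 dox and WT dox. The 2 LPS groups overlapped, and no other neighbours in that order did. Both WT dox pools and CCSP-p52 dox pool 1 lay below the array medians of 7.48 to 7.54. Every difference taken from WT dox starts at that low level.

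In WT lungs LPS raised Slc26a4 by a logFC of 2.93 (standard error 0.42, 7.64-fold, adjusted p = 0.00755 with limma). In CCSP-p52 lungs the rise was 1.10 (standard error 0.42, 2.15-fold, adjusted p = 0.136), and over all 8 arrays it was 2.02 (standard error 0.42, 4.05-fold, adjusted p = 0.00742). All 4 LPS arrays lay above all 4 arrays without LPS. Arrays with and without LPS did not overlap, in either direction, for 36.8% of all genes and for 4 of the 10 members, Slc26a4 and Kcnn4 above and Scnn1b and Ano1 below. Whichever array was dropped, the rise in WT lungs and over all arrays remained at the cut-off, at 2.64 to 3.23 and at 1.72 to 2.42. In CCSP-p52 lungs it was not without CCSP-p52 dox pool 1 (0.57) or CCSP-p52 LPS pool 1 (0.66), nor with array weights (1.10).

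On dox alone Slc26a4 was higher in CCSP-p52 lungs, by a logFC of 1.30 (standard error 0.42, 2.45-fold). The CCSP-p52 dox pools differed from each other by 1.07, against a median of 0.11 over all probe sets in that group, and without CCSP-p52 dox pool 2 the logFC was 0.76 and not at the cut-off, as was also so without WT dox pool 1 (1.22). With LPS the logFC was -0.53 (standard error 0.42, 95% interval -1.52 to 0.45), and over all 8 arrays it was 0.38 (standard error 0.42). The former was -0.094 without CCSP-p52 LPS pool 2 and -0.97 when pool 1 of that group was dropped. The p52 difference with LPS minus that without was -1.83 (standard error 0.59), at the cut-off but with an adjusted p of 0.913. That value was not at the cut-off without CCSP-p52 dox pool 2 (-1.30), nor without WT LPS pool 1 (-1.53), and it shares the WT dox pools with the rise after LPS in WT lungs and the CCSP-p52 dox pools with that in CCSP-p52 lungs.

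Of the other apical anion channels, Ano1 fell after LPS in both genotypes and Slc26a9 did not pass the cut-off in any comparison. Ano1 (TMEM16A) is a calcium-activated chloride channel of airway secretory cells and smooth muscle. Its level was 10.72 and 10.71 in WT dox, 10.73 and 10.64 in CCSP-p52 dox, 9.95 and 9.96 in WT LPS, and 9.87 and 10.06 in CCSP-p52 LPS. The pools without LPS and those with LPS formed separate ranges with no pool between them.

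The logFC of Ano1 after LPS was -0.76 in WT lungs (standard error 0.10, 1.69-fold lower, adjusted p = 0.00604 with limma), -0.72 in CCSP-p52 lungs (standard error 0.10, 1.65-fold lower, adjusted p = 0.0115) and -0.74 over all arrays (standard error 0.07, 1.67-fold lower, adjusted p = 0.000267). It was at the cut-off under all 17 alternatives to the fit over all arrays and in both genotypes with any array dropped. Between genotypes its logFC over all arrays was -0.01 (standard error 0.07, 95% interval -0.16 to 0.15). The smooth muscle markers (8 of 8 measured) had mean levels of 9.81 to 10.15 without LPS and of 9.05, 9.84, 9.01 and 9.71 in the LPS pools, WT first, and 4 of the 8 were lower at the cut-off over all arrays. The club cell markers had mean levels of 11.14 to 11.71 without LPS and of 10.12, 11.37, 10.81 and 11.35 in the LPS pools, with 7 of 12 lower at the cut-off, 1 higher and a median logFC of -0.67. The part of these cells in the fall was not tested.

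Slc26a9, an epithelial chloride channel that is known to work together with CFTR, was 10.69 and 10.46 in WT dox, 10.42 and 10.24 in CCSP-p52 dox, 10.50 and 10.43 in WT LPS, and 10.23 and 10.68 in CCSP-p52 LPS. On dox alone both CCSP-p52 pools were below both WT pools, with a logFC of -0.25 (standard error 0.17, 95% interval -0.65 to 0.15). The other values overlapped.

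Of the ENaC subunits, Scnn1b and Scnn1g fell after LPS over all arrays with an adjusted p under 0.05 with limma, Scnn1g just short of the cut-off, and Scnn1a did not. The 3 proteins form 1 channel, the rate-limiting step of Na+ uptake from airway and alveolar liquid, in which the alpha subunit encoded by Scnn1a is needed for function and the beta and gamma subunits raise the current. Scnn1b was 10.55 and 10.65 in WT dox, 10.53 and 10.49 in CCSP-p52 dox, 9.70 and 9.66 in WT LPS, and 9.37 and 10.43 in CCSP-p52 LPS. The last pool lay just below the pools without LPS, and the other 3 LPS pools were well below them.

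Over all arrays Scnn1b had a logFC of -0.77 after LPS (standard error 0.20, 1.70-fold lower, adjusted p = 0.0208 with limma), with -0.92 in WT lungs (standard error 0.30, 1.89-fold lower, adjusted p = 0.0696) and -0.61 in CCSP-p52 lungs (standard error 0.30, adjusted p = 0.232). Whichever array was dropped, the fall over all arrays was at the cut-off, at -1.01 to -0.58. In CCSP-p52 lungs it was not at the cut-off with both pools, but was at -1.14 without CCSP-p52 LPS pool 2, and it was -0.080 when pool 1 of that group was dropped. In WT lungs the values with 1 WT pool left out were -0.97 to -0.87, all 4 of them short of the cut-off in p.

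Scnn1g was 11.83 and 11.80 in WT dox, 11.88 and 11.72 in CCSP-p52 dox, 11.24 and 11.27 in WT LPS, and 11.25 and 11.85 in CCSP-p52 LPS. CCSP-p52 LPS pool 2 lay within the range of the pools without LPS. The p52 difference with LPS minus that without was 0.31 (standard error 0.26, 95% interval -0.32 to 0.94). The data thus do not separate the LPS differences of WT and CCSP-p52 lungs. In WT lungs the logFC after LPS was -0.56 (standard error 0.19, 1.48-fold lower, adjusted p = 0.0737), at the cut-off with both pools of each group but not with any of the 4 WT pools left out. Over all arrays it was -0.41 when rounded (standard error 0.14, adjusted p = 0.0488 with limma), which passed adjustment but fell just short of the cut-off, and in CCSP-p52 lungs it was -0.25 (standard error 0.19, adjusted p = 0.429). Without CCSP-p52 LPS pool 2 it was -0.56 over all arrays and -0.55 in CCSP-p52 lungs, at the cut-off in both, and over all arrays it was also at the cut-off without CCSP-p52 dox pool 2 (-0.47).

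Alveolar type I and club cells, which make ENaC, had markers that fell after LPS, but not every epithelial list fell. Over all arrays 5 of the 12 alveolar type II markers were lower at the cut-off and 0 higher, while 6 had a positive logFC and the median was -0.05. Of the pan-epithelial markers 5 of 10 were higher at the cut-off and 0 lower, with a median logFC of 0.37. Of the alveolar type I markers 11 of 12 were lower at the cut-off, with a median logFC of -0.77 and mean levels of 12.04 to 12.07 without LPS and of 11.14, 11.23, 10.96 and 11.62 in the LPS pools, WT first. CCSP-p52 LPS pool 2 was the highest LPS pool in that list, as in Scnn1b and Scnn1g, and the part of these cells, and of the club cells with 7 of 12 markers lower, in the falls of Scnn1b and Scnn1g was not tested.

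Scnn1a stayed within a narrow range on 7 arrays and was highest in CCSP-p52 LPS pool 2. It was 12.17 in both WT dox pools, 12.21 and 12.05 in CCSP-p52 dox, 11.98 and 11.88 in WT LPS, and 12.13 and 12.68 in CCSP-p52 LPS. Its LPS difference over all arrays had a 95% interval of -0.32 to 0.36. With LPS it was higher in CCSP-p52 than in WT lungs, by a logFC of 0.47 (standard error 0.18, 1.39-fold), but by 0.19, and not at the cut-off, without CCSP-p52 LPS pool 2. It also lost its place without any other single array except CCSP-p52 LPS pool 1. The p52 difference with LPS minus that without was 0.51 (standard error 0.25, 95% interval -0.08 to 1.11).

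**Figure D2:**
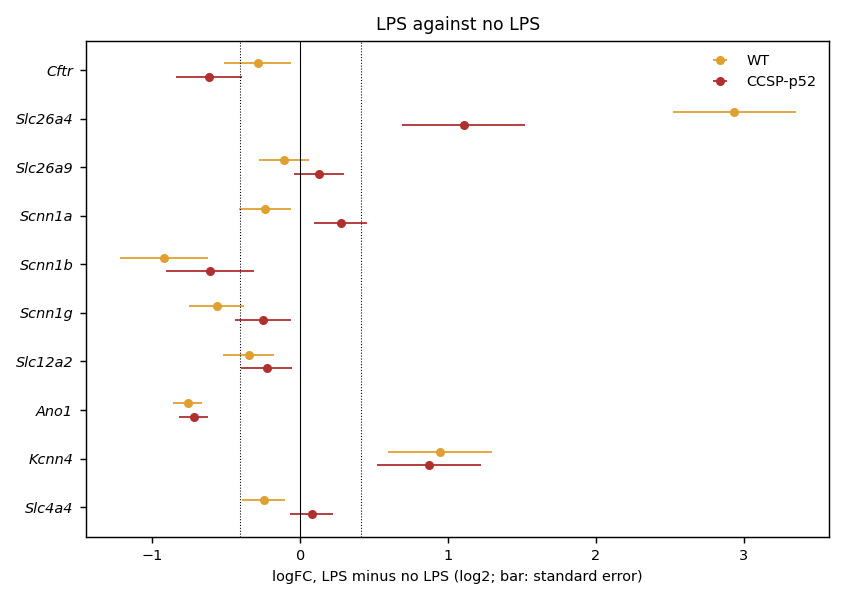
LogFC between LPS and no LPS (horizontal axis, log2, with standard errors) for the 10 genes in WT and in CCSP-p52 lungs, with dotted lines at the cut-off of 0.41 in size. Slc26a4 has the highest value, 2.93 in WT and 1.10 in CCSP-p52 lungs, Kcnn4 lies to the right in both, and Ano1 lies to the left in both with the smallest standard errors.

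The basolateral and potassium transport genes differed from one another. Kcnn4, the intermediate-conductance calcium-activated K+ channel, is made by epithelial cells and also by T cells, macrophages and other leukocytes. It was 8.55 and 8.33 in WT dox, 8.31 and 8.19 in CCSP-p52 dox, 9.66 and 9.11 in WT LPS, and 9.68 and 8.56 in CCSP-p52 LPS. All LPS pools were above all pools without LPS, CCSP-p52 LPS pool 2 by the least.

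After LPS, Kcnn4 rose by a logFC of 0.91 over all arrays (standard error 0.23, 1.88-fold, adjusted p = 0.0173 with limma). In WT lungs the logFC was 0.94 (standard error 0.35, adjusted p = 0.0996) and in CCSP-p52 lungs 0.87 (standard error 0.35, adjusted p = 0.16). Whichever array was dropped, the rise over all arrays was at the cut-off, at 0.69 to 1.14. In CCSP-p52 lungs it was 1.43 without CCSP-p52 LPS pool 2, and 0.31, not at the cut-off, when pool 1 of that group was dropped. Within a genotype it was also not at the cut-off without WT LPS pool 1 (0.67) or without any 1 of the 4 pools on dox alone. The macrophage and monocyte markers (10 of 12 measured) had mean levels of 7.67 to 8.21 without LPS. These were 9.52 and 9.27 in WT LPS and 9.45 and 9.03 in CCSP-p52 LPS. Over all arrays 7 of the 10 were higher at the cut-off after LPS and 1 was lower. The neutrophil markers (9 of 10) went from 7.22 to 7.68 without LPS to 11.15 and 10.67 in WT LPS and 11.11 and 10.43 in CCSP-p52 LPS. The T cell markers (8 of 10) were 7.80 to 8.36 without LPS, 8.40 and 8.06 in WT LPS, and 8.34 and 7.64 in CCSP-p52 LPS, with 0 of the 8 at the cut-off after LPS. The B cell markers (7 of 8) were 7.91 to 8.87 without LPS, 8.12 and 7.61 in WT LPS, and 7.96 and 7.36 in CCSP-p52 LPS. Over all arrays 3 of the 7 were lower at the cut-off after LPS and 0 higher, with a median logFC of -0.64. In all of these lists and in Kcnn4, CCSP-p52 LPS pool 2 was the lowest LPS pool, and the part of these cells in the rise was not tested.

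Slc12a2 (NKCC1) brings Na+, K+ and Cl- into the cell from the blood side and so feeds the chloride that CFTR and ANO1 release. It was 10.66 and 10.62 in WT dox, 10.96 and 10.92 in CCSP-p52 dox, 10.21 and 10.37 in WT LPS, and 10.44 and 10.98 in CCSP-p52 LPS. As for Cftr, in each LPS state the CCSP-p52 pools were both higher than the WT pools, with a logFC of 0.30 (standard error 0.17) without LPS, 0.42 (standard error 0.17, 1.33-fold) with LPS and 0.36 (standard error 0.12, 1.28-fold) over all arrays. Only the difference with LPS was at the cut-off, and it was 0.15, and not at the cut-off, without CCSP-p52 LPS pool 2, and lost its place with any array but CCSP-p52 LPS pool 1 left out. After LPS the logFC of Slc12a2 was -0.35 in WT lungs (standard error 0.17, adjusted p = 0.189) and -0.29 over all arrays (standard error 0.12, adjusted p = 0.0922), neither at the cut-off.

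Slc4a4 (NBCe1), the sodium and bicarbonate cotransporter that loads HCO3- from the blood side, was 8.85 and 8.82 in WT dox, 8.95 and 8.98 in CCSP-p52 dox, 8.43 and 8.76 in WT LPS, and 8.89 and 9.18 in CCSP-p52 LPS. All 4 CCSP-p52 arrays were above all 4 WT arrays. The genotypes did not overlap, in either direction, for 1 of the 10 members and for 1.01% of all genes. The logFC was 0.13 (standard error 0.14) without LPS, 0.45 (standard error 0.14, 1.36-fold) with LPS and 0.29 (standard error 0.11) over all arrays. Only the difference with LPS was at the cut-off, and it was not without CCSP-p52 LPS pool 2 (0.30) or WT LPS pool 1 (0.28). The p52 difference with LPS minus that without was 0.32 (standard error 0.20, 95% interval -0.16 to 0.81).

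**Figure D3:**
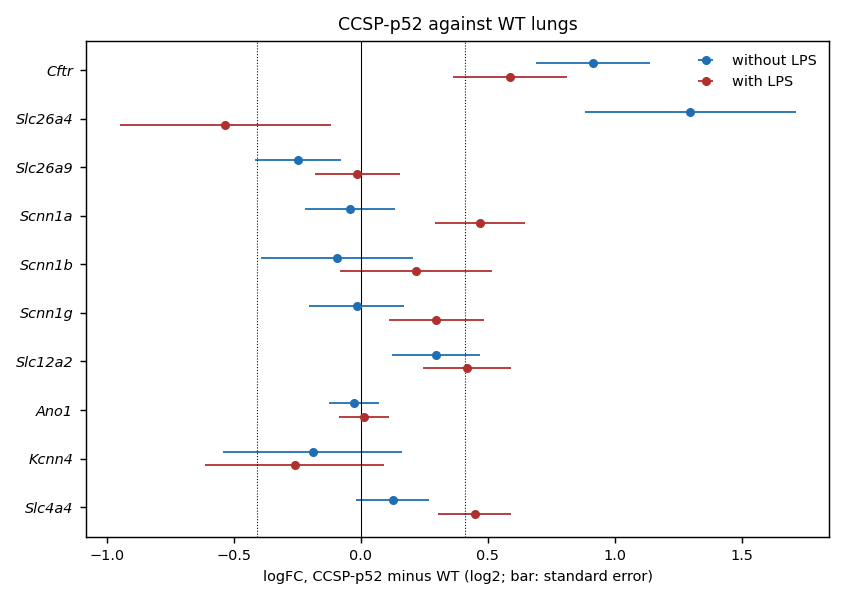
LogFC between CCSP-p52 and WT lungs (horizontal axis, log2, with standard errors) for the 10 genes without LPS and with LPS, with dotted lines at the cut-off of 0.41 in size. Cftr lies to the right in both states (0.91 and 0.59), and Slc26a4 lies to the right without LPS (1.30) and to the left with LPS (-0.53).

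Counted together, 5 of the 10 genes were at the cut-off after LPS over all arrays, where 23.8% of all genes were. Slc26a4 and Kcnn4 were higher, a direction taken by 9.89% of all genes, and Cftr, Scnn1b and Ano1 were lower, as were 13.9%. By an adjusted p under 0.05 the count was also 5, with Scnn1g in place of Cftr, beside 34.3% of all genes. The median logFC of the 10 was -0.19, against 0.00 over all genes. In WT lungs 5 of the 10 were at the cut-off (26.7% of all genes), Slc26a4 and Kcnn4 higher and Scnn1b, Scnn1g and Ano1 lower. In CCSP-p52 lungs 4 of the 10 were (19.2% of all genes), Slc26a4 and Kcnn4 higher and Cftr and Ano1 lower, and the count was 7 when CCSP-p52 LPS pool 2 was left out and 2 when pool 1 was, with 1 and 2 when CCSP-p52 dox pool 1 or pool 2 was. The count in WT lungs was 2 without either WT dox pool or WT LPS pool 1. Higher genes were 10.7% of all in WT and 8.87% in CCSP-p52 lungs, and lower genes 16% and 10.3%. After adjustment 2 of the 10 remained in WT lungs, Slc26a4 and Ano1 (22.1% of all genes), and 1 in CCSP-p52 lungs, Ano1 (9.34%).

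Between genotypes, 1 of the 10 genes, Cftr, was at the cut-off over all arrays, where 0.271% of all genes were (0.228% higher), and the count was 3 without CCSP-p52 LPS pool 1. Without LPS 2 of the 10 were, Cftr and Slc26a4 (0.733% of all genes, 0.569% higher), and these are the values known when the family was chosen, so nothing is read from the count, which was 1 without CCSP-p52 dox pool 2 and 1 without WT dox pool 1. With LPS 4 of the 10 were, all higher in CCSP-p52 (2.06% of all genes in either direction and 0.972% higher): Cftr, Scnn1a, Slc12a2 and Slc4a4. The count with LPS was 0 without CCSP-p52 LPS pool 2, 0 without WT LPS pool 1, 7 without CCSP-p52 LPS pool 1, 1 or 2 without any other single array, and 0 when the 4 LPS arrays were fitted alone. No gene of the 10 had an adjusted p under 0.05 with limma in a genotype comparison, where 0.00531% of all genes had one over all arrays and 0% without LPS, with LPS or for the difference between them. That difference was at the cut-off for 1 of the 10, Slc26a4 (3.61% of all genes, 2.38% lower), and the count was 6 without CCSP-p52 LPS pool 1, 2 without either second LPS pool and 0 without WT LPS pool 1 or without CCSP-p52 dox pool 2.

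The 2 CCSP-p52 LPS pools were further apart than those of other groups for 8 of the 10 genes. The gap ran from 0.18 for Ano1 to 1.12 for Kcnn4, where the median gap over all probe sets was 0.20 in that group, 0.14 in WT LPS, 0.11 in CCSP-p52 dox and 0.10 in WT dox. In pool 2 the genes Cftr, Slc26a9, Scnn1a, Scnn1b, Scnn1g, Slc12a2, Ano1 and Slc4a4 were higher than in pool 1, and Slc26a4 and Kcnn4 were lower. Endothelial markers were 11.91 in pool 2 and 11.22 to 11.53 in the other LPS pools, against 12.35 to 12.47 without LPS, and alveolar type I markers were 11.62 against 10.96 to 11.23, and 12.04 to 12.07 without LPS. The part of the smaller LPS response of that pool in the genotype differences with LPS was not tested.

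**Figure D4:**
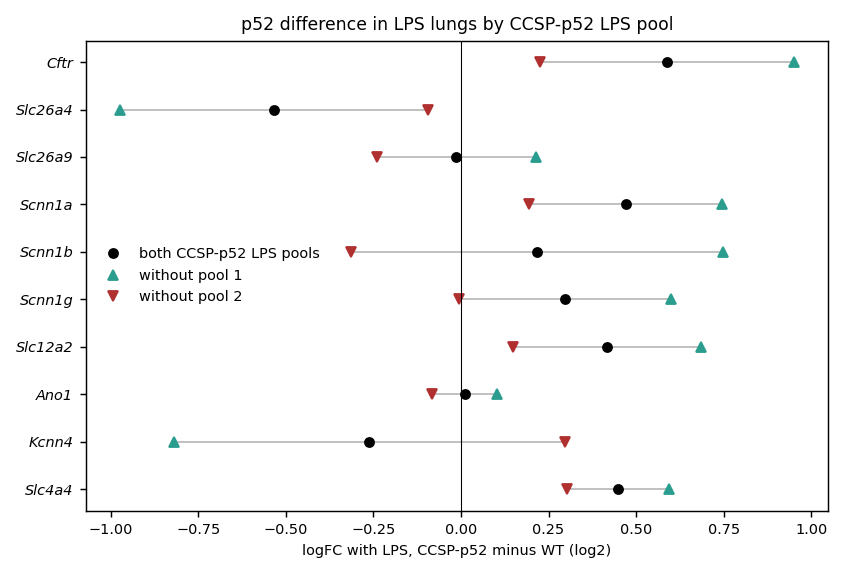
LogFC between CCSP-p52 and WT lungs with LPS (horizontal axis, log2) for the 10 genes, with both CCSP-p52 LPS pools (circles) and with pool 1 or pool 2 left out (triangles). For Cftr the value is 0.59 with both pools, 0.23 without pool 2 and 0.95 without pool 1, and Scnn1b and Kcnn4 change sign between the pools.

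The genes whose 8 values ran closest to those of Cftr, each gene centred on its own mean, were Nudt11, a Nudix hydrolase gene, Nexmif, Slc12a2, Gm6498 and Phlda2, with root mean square differences of 0.20, 0.21, 0.25, 0.26 and 0.26 over the 8 arrays. Cftr itself varied about its mean by 0.49 on the same scale. Slc12a2, the member that loads chloride, was thus the third closest of 18819 genes, and its values are those given above. Nudt11 was 5.51 and 5.60 in WT dox, 6.25 and 6.12 in CCSP-p52 dox, 5.36 and 5.44 in WT LPS, and 5.50 and 5.89 in CCSP-p52 LPS.

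Those closest to Slc26a4 were Retnla, which encodes a secreted protein of type 2 inflammation, Socs3, a feedback inhibitor of cytokine signalling, Ak4, Top2a, a DNA topoisomerase of dividing cells, and Mki67, the gene for the proliferation antigen Ki-67. The root mean square differences were 0.36, 0.42, 0.43, 0.43 and 0.44, where Slc26a4 varied about its mean by 1.19. Retnla was 8.79 and 8.44 in WT dox, 8.93 and 10.90 in CCSP-p52 dox, 11.41 and 11.28 in WT LPS, and 11.91 and 10.92 in CCSP-p52 LPS. As in Slc26a4, CCSP-p52 dox pool 2 was above CCSP-p52 dox pool 1, by 1.97 in Retnla. These likenesses are over 8 arrays that share the LPS difference.

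Other genes of ion and fluid transport were followed in 10 lists chosen with earlier results known, which name 220 genes, 194 of them measured. After LPS over all arrays 32 of the 194 were higher and 32 were lower at the cut-off, 33.0% in all beside 23.8% of all genes, and their median logFC was 0.02 against 0.00. The count of higher genes was 26 to 35 and that of lower genes 29 to 35 with single arrays dropped. Of all genes 9.89% were higher and 13.9% lower after LPS. Each list count that follows is to be read beside these shares.

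Among other apical anion channels and exchangers, 3 of 29 were higher after LPS, 1 was lower and 25 were not at the cut-off. Clca3a1 and Clca3b, of a family of regulators of calcium-activated chloride channels, had logFCs of 1.64 (standard error 0.13) and 0.66 (standard error 0.22), and Best1, a bestrophin anion channel, had 1.28 (standard error 0.15), while its relative Best3 had -0.95 (standard error 0.11). Clca3b was not at the cut-off without CCSP-p52 LPS pool 1 (0.54). Clca3a1 and Clca3b lay below the array medians of 7.48 to 7.54 on every array. Whether the probes tell the similar Clca genes apart was not examined. Of the cation-chloride cotransporters and their kinases, 0 of 13 were at the cut-off.

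Among bicarbonate and proton transport genes, 3 of 20 were higher and 5 lower. The carbonic anhydrase gene Car13 rose by 2.49 (standard error 0.32) and the Na+/H+ exchanger gene Slc9a4 by 0.68 (standard error 0.10), while the bicarbonate transporter genes Slc4a1, known from red blood cells, and Slc4a5 had logFCs of -0.86 (standard error 0.14) and -1.63 (standard error 0.31). Of 23 other epithelial potassium channel genes, 1 was higher and 7 lower, so that Kcnn4 moved against most of those that changed. Kcnq1, a basolateral channel of secreting epithelia, had a logFC of -0.91 (standard error 0.11), Kcnh2 of -0.87 (standard error 0.10) and the small-conductance channel gene Kcnn2, a relative of Kcnn4, of -0.58 (standard error 0.07).

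Among ENaC regulators, 6 of 27 were higher and 5 lower. Furin, a protease that cleaves ENaC subunits on their way to the surface, rose by 0.92 (standard error 0.12), and the membrane protease gene Tmprss2 fell, with a logFC of -1.25 (standard error 0.15). The mineralocorticoid receptor gene Nr3c2 and the glucocorticoid receptor gene Nr3c1, whose hormones raise ENaC activity, had logFCs of -0.97 (standard error 0.14) and -0.50 (standard error 0.07). Of the 10 sodium-potassium ATPase genes 1 was higher, the regulator Fxyd5 (0.90, standard error 0.09), and 2 were lower, Atp1b2 (-0.92, standard error 0.12) and Fxyd1 (-0.77, standard error 0.15).

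Among CFTR regulators and secretagogue receptors, 5 of 29 were higher and 8 lower after LPS. Slc9a3r1, whose product NHERF1 anchors CFTR at the apical membrane, rose by 0.97 (standard error 0.09), and the purinergic receptor gene P2ry2, through which ATP triggers calcium-activated secretion, by 0.91 (standard error 0.12). Pde3a, a phosphodiesterase that breaks down cAMP, had a logFC of -1.40 (standard error 0.21). In the DUOX and lactoperoxidase system, which uses the thiocyanate that pendrin can bring to the surface, 4 of 11 were higher and 0 lower: Cybb (2.68, standard error 0.24), the oxidase subunit of phagocytes, Noxo1 (0.95, standard error 0.13), Duoxa2 (0.61, standard error 0.10) and Duox2 (0.52, standard error 0.16). Duox2 was not at the cut-off without CCSP-p52 LPS pool 1 (0.35).

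Of the 10 aquaporin genes 2 were higher and 3 lower, among them Aqp5 (-0.50, standard error 0.08), the water channel of alveolar type I and gland cells, and Aqp1 (-1.07, standard error 0.20), that of endothelium, while Aqp9, a channel also known from leukocytes, rose by 1.00 (standard error 0.15). In the IL-4, IL-13 and IL-17 axis, cytokines known to induce Slc26a4 in airway epithelium, 7 of 23 were higher and 1 lower. The receptor genes Il13ra1, Il17ra and Il4ra rose by 1.14 (standard error 0.13), 1.16 (standard error 0.15) and 0.64 (standard error 0.08). Neutrophil and macrophage markers were higher and endothelial and alveolar type I markers lower after LPS, as given above, and their part in these list counts was not tested.

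**Figure D5:**
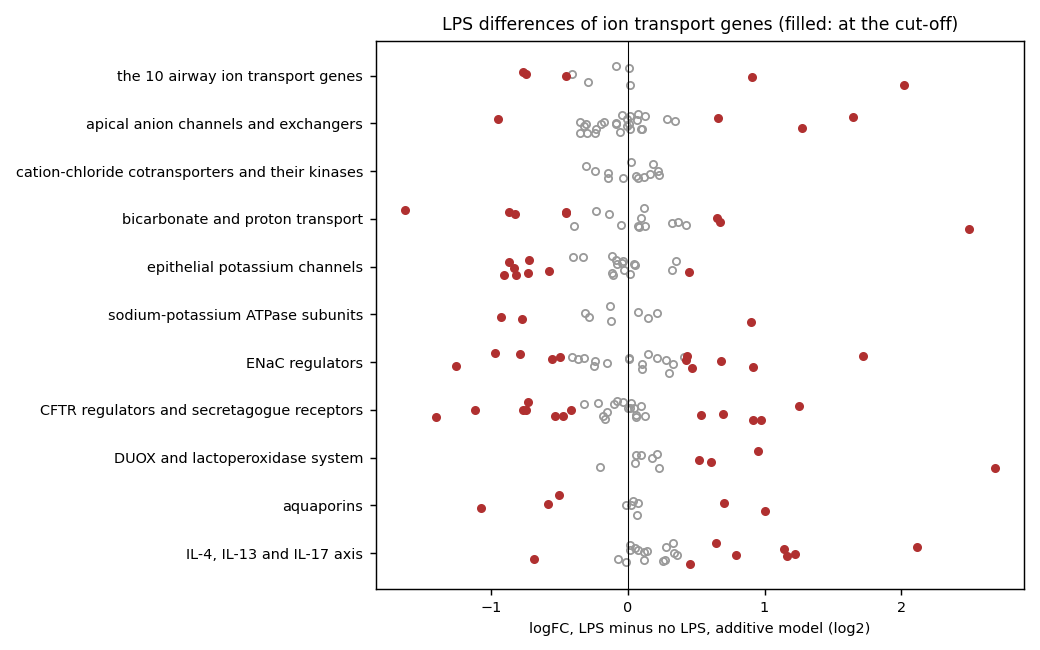
LogFC between LPS and no LPS over all arrays (horizontal axis, log2) for the 10 genes and for each list of other transport genes (rows); each point is 1 gene, and filled points are at the cut-off. Higher and lower genes stand in most lists, with 32 of each in the lists together, while the cotransporter list has no filled point.

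Between genotypes over all arrays 1 gene of these lists was higher, Chil4, and 1 was lower, Bpifa1, 1.03% of the 194 beside 0.271% of all genes. Chil4 was not at the cut-off with array weights (0.24) or without pool 1 of CCSP-p52 LPS (0.33) or of WT LPS (0.32). Its levels of 4.55 to 6.45 were below the array medians of 7.48 to 7.54 on every array. Bpifa1 encodes SPLUNC1, a protein of airway liquid that is known to restrain ENaC. It was 10.30 and 8.54 in WT dox, 6.86 and 6.12 in CCSP-p52 dox, 6.25 and 9.80 in WT LPS, and 7.06 and 7.24 in CCSP-p52 LPS, so the 2 pools of each WT group were far apart. Its logFC was -2.93 without LPS (standard error 1.09) and -1.90 over all arrays (standard error 0.79), and the latter was at the cut-off under 7 of 16 alternatives, and not with the pool number as a block, where p was 0.0556, or without WT LPS pool 2 (-1.40). The former was not at the cut-off without WT dox pool 1 (-2.05) or without either CCSP-p52 dox pool.

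Without LPS, 2 of the 194 were lower, Bpifa1 and Aqp7 (logFC -0.45, standard error 0.18), and 0 were higher, 1.03% in all beside 0.733% of all genes. Aqp7 was not at the cut-off with the block (limma p of 0.0535). With LPS, 3 were higher, Prkg2, Chil4 (logFC 0.64, standard error 0.18) and Clca3a1 (0.48, standard error 0.20, at the cut-off under 6 of 17 alternatives), and 7 were lower, 5.15% of the 194 in all beside 2.06% of all genes. Here too Chil4 was not at the cut-off without pool 1 of CCSP-p52 LPS (0.48) or of WT LPS (0.45). Prkg2, a cGMP-dependent kinase that can activate CFTR, had a logFC of 0.79 (standard error 0.26), but of 0.37, and not at the cut-off, without CCSP-p52 LPS pool 2, nor was it without WT LPS pool 2 (0.65). Of the lower genes 3 belong to the DUOX and lactoperoxidase list of 11: Lpo (-0.60, standard error 0.13), which encodes the lactoperoxidase that oxidizes thiocyanate, Duox1 (-0.45, standard error 0.18) and Slc5a8 (-0.48, standard error 0.20). Slc5a8 was not at the cut-off with the block (limma p of 0.0597), and Duox1 and Slc5a8 were at it under 6 and 7 of 17 alternatives. The other 4 were Bpifa5, Il17a, Slc9a3 and Casr, with logFCs of -0.62 to -0.43. Without WT LPS pool 2, 5 of the 7 were not at the cut-off, Bpifa5 (-0.35), Slc9a3 (-0.36), Casr (-0.30), Duox1 (-0.17) and Slc5a8 (-0.26). Bpifa5 (-0.47), Casr (-0.36), Duox1 (-0.49) and Slc5a8 (-0.37) were also not at it without CCSP-p52 LPS pool 2, nor was Il17a without WT LPS pool 1 (-0.35). Lpo was 7.23 and 7.04 in WT LPS and 6.40 and 6.66 in CCSP-p52 LPS, and it was at the cut-off under all 17 alternatives. None of these genes passed adjustment. All 7 lower genes, Lpo included, lay below the array medians of 7.48 to 7.54 on every array. So did Aqp7 and, of the higher genes, Chil4 and Clca3a1.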

How the data were processed

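Lung RNA was hybridized to 8 arrays, 2 pools of 3 mice in each of 4 groups, grouped by their labels. The authors made the deposited log2 values with the Robust Multichip Average of the R package oligo, which corrects background, brings the arrays to 1 distribution and summarizes each probe set, and the submitters' processing notes name limma 3.20.8. Such values have no detection call and no true 0, and a change in total RNA per lung cannot be seen in them. Array medians lay between 7.48 and 7.54.

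Of 35556 probe sets, 21218 have 1 symbol in the platform's probe table and were fitted; 1881 with several and 12457 with none were not named. Whether that table is of the version of the array named in the paper was not settled. A gene with several probe sets is represented by the one with the highest mean.

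The values were fitted with limma 3.58.1 in R 4.3.3. Values given as over all arrays came from an additive model with p52 and LPS as factors. The study describes a linear model with both factors but does not state that it was additive. Its listed logFCs for Slc26a4 and Nfkb2 match the differences without LPS found here (1.30 and 0.72). They do not match the additive values (0.38 and 0.47). Differences within a genotype or LPS state, and the difference between these, were taken from a 4-group model. Adjustment was by Benjamini-Hochberg over all probe sets fitted. The smallest p of an exact permutation test is 0.33 for 2 pools against 2 and 0.029 for 4 against 4.

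The members, the 10 transport lists, the 15 marker lists and the tests were chosen with earlier results of these data known. Named are the members, up to 4 genes per transport list at the cut-off by smallest p, the 5 nearest profiles of Cftr and Slc26a4, and Nfkb2; the markers Foxi1 and Ascl3 are given as values. Pools with the same number deviated together from their groups, with correlations of 0.14 to 0.347 for the 6 pairs of groups. What they share is not stated, and they were taken as paired from these values alone. The pairing entered only in the alternative with a block for the pool number, and the main fits had no block. The steps were tested on simulated data. Alternatives were other sets of probe sets, other moderation, array weights, centring, quantile normalization, a block for the pool number, each LPS state alone, single arrays left out and stricter thresholds. They were extended to the transport list genes after the data were seen.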

Additional observations from a re-analysis of the deposited data

Results flagged for a closer look

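The p52 difference of Slc26a4 with LPS minus that without LPS was -1.83 on the log2 scale (standard error 0.59, 95% interval -3.22 to -0.44), by the interaction term of the 4-group limma fit, with an unadjusted p of 0.0174 and an adjusted p of 0.913. It includes the difference on dox alone that was known when the family was chosen, so it is given as a description. Among the 10 genes it was the only one whose interaction was at the cut-off with all arrays, beside 3.61% of all genes. It was not at the cut-off without CCSP-p52 dox pool 2 (-1.30) or without WT LPS pool 1 (-1.53). The value ranged from -2.36 to -1.30 with each array left out in turn. Both WT dox pools, which enter it, lay below the array medians of 7.48 to 7.54.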

How the results depend on the processing

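Results for the 10 genes and for the transport genes named were fitted again under up to 18 other settings. With the pool number as a block, the paired analysis gave the same counts of the 10 genes at the cut-off in all 7 comparisons (1 for p52 over all arrays, 5 for LPS over all arrays, 2 for p52 without LPS, 4 for p52 with LPS, 5 and 4 for LPS in WT and CCSP-p52 lungs, 1 for the difference), and the logFC of Cftr over all arrays stayed 0.75. Only calls of list genes changed with it. With array weights the counts were 2 for p52 over all arrays and 2 for the difference. With quantile normalization the count was 2 for p52 with LPS. Above the median level, which leaves out Slc26a4, the counts were 1 for p52 without LPS and 0 for the difference. Without both second LPS pools they were 1 for p52 with LPS, 7 for LPS in CCSP-p52 lungs and 2 for the difference. With each LPS state alone the count was 0 for p52 with LPS. By an adjusted p under 0.05 the counts were 0 for each of the p52 comparisons and the difference, 2 for LPS in WT and 1 for LPS in CCSP-p52 lungs. With a logFC of at least 1 in size they were 0 for p52 over all arrays and with LPS, and 1 for LPS over all arrays, p52 without LPS, LPS in WT and LPS in CCSP-p52 lungs. Leaving out 1 array at a time, the counts ran from 1 to 3 for p52 over all arrays, 4 to 6 for LPS over all arrays, 1 to 2 for p52 without LPS, 0 to 7 for p52 with LPS, 2 to 5 for LPS in WT, 1 to 7 for LPS in CCSP-p52 lungs and 0 to 6 for the difference. The lone pool left in a group is then assumed to vary like the others. Signs turned, among others, for these differences: Ano1 between genotypes over all arrays was 0.001 with array weights and -0.049 to 0.025 with arrays left out, Slc26a4 between genotypes over all arrays -0.015 to 0.74, Scnn1g after LPS in CCSP-p52 lungs -0.55 to 0.052 and the difference for Cftr -0.69 to 0.037. Between genotypes with LPS, the values when pool 1 and when pool 2 of CCSP-p52 LPS was dropped were 0.75 and -0.31 for Scnn1b, -0.82 and 0.30 for Kcnn4, 0.21 and -0.24 for Slc26a9, 0.60 and -0.0059 for Scnn1g and 0.10 and -0.081 for Ano1. The cause was not tested. Of the 1483 refitted values, 1321 kept direction and side of the cut-off, 136 no longer reached it, 20 newly reached it and 6 changed sign. These counts cover only part of the differences. They leave out the genotype differences with LPS of Scnn1b, Kcnn4, Slc26a9, Scnn1g and Ano1, so the sign changes just given for these are not among the 6.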
